A study of Mus musculus with 4 samples.

Results

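The transcription factor genes that set the secretory lineages of the intestinal epithelium were examined in the small intestine of wild-type mice and of mice with a CFLARs transgene. The genes were chosen by symbol (Atoh1, Spdef, Gfi1, Sox9, Hes1, Neurog3, Neurod1, Pou2f3 and Klf4), and each of these 9 had 1 probe set with a single gene symbol, out of 19938 genes that had such a probe set. Cflar encodes an inhibitor of caspase-8 and death receptor signalling, and CFLARs is its short form. The mice were C57BL/6, and total RNA of the small intestine was hybridised to 4 Affymetrix arrays, each with 1 sample. The wild-type group held 2 arrays, titled XX and XY, and the group with the genotype CFLARs Tg held 2 arrays, titled XCFX and XCFY. Arrays titled XX or XCFX are referred to as the XX type, and those titled XY or XCFY as the XY type. Sex-linked genes separated them in the same way: Xist read 12.92 and 12.90 in the XX type against 6.78 and 6.62 in the XY type. The promoter that drives the transgene, its copy number, the number of mice behind an array, their age and the stretch of intestine sampled are not given in the labels, and the series title names ileitis and preterm mice. P-values therefore measure the spread between these arrays, in which sex type and technical variation are included.

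Cells of the intestinal crypt become absorptive or secretory through Notch signalling. Where Notch is active, the repressor Hes1 is made and holds down Atoh1, and the cell becomes an absorptive enterocyte. Where Notch is low, Atoh1 is released and opens the secretory programmes: goblet cells, matured by Spdef and Klf4, Paneth cells, which need Sox9, and enteroendocrine cells, which arise through Neurog3 and then Neurod1. Gfi1 acts after Atoh1 and keeps goblet and Paneth precursors from the enteroendocrine fate, and Pou2f3 drives tuft cells.

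Of the 9 factors, 8 passed a filter that left out the 30% of genes with the lowest mean, and 1 of these 8, Spdef, rose in CFLARs Tg (limma, adjusted p under 0.05, adjusted over 13956 genes). None of the 8 fell (0 genes; unadjusted p under 0.05 in 3, each of them higher). Over all fitted genes 8.44% rose and 10.9% fell, so the share of factors called is near the background. The differences of Atoh1 and Klf4 were larger than that of Spdef but varied more between arrays, and they passed the threshold when the sex type was taken as a block. Hes1 read nearly the same on the 4 arrays. The median difference of the 8 factors was 0.21 on the log2 scale, against -0.01 for all fitted genes. Of the 8, 8 lay higher in CFLARs Tg, as did 47.6% of all fitted genes, with Hes1 higher by only 0.01. Neurod1, with a wild-type mean of 7.41, passed the filter (cut at a mean of 7.48) only through its CFLARs Tg arrays. Pou2f3, which the filter left out, lay lower (-0.05), so 8 of 8 depends in part on the filter. In bulk RNA a change in the number of cells of a type and a change in RNA per cell cannot be told apart.

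The 250 bases upstream of the start sites of Atoh1, Spdef and Klf4 are shown because these 3 factors had the largest differences. The sequences are those of RefSeq in build GRCm38.p6, which held a promoter for 6 of the 9 factors (not Sox9, Hes1 or Pou2f3), and each is written from 5′ to 3′ on the strand of the gene, ending at the base before the start site. Capitals mark an E box (CANNTG), the site of basic helix-loop-helix proteins such as Atoh1, Neurog3 and Neurod1, or the core bound by Rbpj, the DNA-binding partner of Notch (TGGGAA).
Atoh1 (chr6:64728875-64729124, plus strand): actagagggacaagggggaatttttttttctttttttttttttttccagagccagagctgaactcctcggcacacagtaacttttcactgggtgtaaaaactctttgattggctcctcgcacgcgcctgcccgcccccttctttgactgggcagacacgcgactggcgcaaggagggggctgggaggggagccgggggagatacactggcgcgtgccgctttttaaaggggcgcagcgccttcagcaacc
Spdef (chr17:27728952-27729201, minus strand): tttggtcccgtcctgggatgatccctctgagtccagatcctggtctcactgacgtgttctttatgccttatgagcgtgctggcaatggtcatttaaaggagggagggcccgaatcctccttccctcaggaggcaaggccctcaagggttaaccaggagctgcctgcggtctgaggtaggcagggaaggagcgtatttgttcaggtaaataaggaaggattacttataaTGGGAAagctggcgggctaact
Klf4 (chr4:55532476-55532725, minus strand): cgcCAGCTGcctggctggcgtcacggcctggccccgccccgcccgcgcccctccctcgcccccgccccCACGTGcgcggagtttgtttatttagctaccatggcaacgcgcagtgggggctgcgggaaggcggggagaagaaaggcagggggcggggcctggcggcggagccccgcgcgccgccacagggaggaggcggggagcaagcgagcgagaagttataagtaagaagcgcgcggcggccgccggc

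Both strands were searched for E boxes, for TGGGAA, for the N box bound by Hes proteins (CACNAG) and for CACCC, which Krueppel-like factors bind. Klf4 held 2 E boxes, which start 247 and 182 bases upstream, and Spdef held 1 TGGGAA, 22 bases upstream. The window of Atoh1 held 1 CACCC, 161 bases upstream, and 0 matches to the other 3 motifs. No match overlapped another (0 of these). Of 32841 promoters in the RefSeq table, 66.2% held an E box, 21.6% TGGGAA, 36.7% an N box and 52% CACCC in the same window, so a match in these windows is common. A match is a description of the letters, and binding was not measured.

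Atoh1, the factor without which the secretory lineages do not form, was measured by probe set 10538751. It read 9.18 and 9.61 in the wild-type XX and XY arrays and 9.81 and 10.09 in the CFLARs Tg XCFX and XCFY arrays (log2). Both CFLARs Tg arrays lay above both wild-type arrays, and within each genotype the XY type lay above the XX type. The means were 9.40 ± 0.30 and 9.95 ± 0.20 (SD, n = 2), a 1.47-fold difference. The log2 difference was 0.55 with a moderated standard error (SE) of 0.18 and a 95% interval from 0.09 to 1.02 (limma adjusted p = 0.0898), so Atoh1 was not called. The difference was 0.62 in the XX type and 0.48 in the XY type. Taking the sex type as a block, the SE was 0.08 and Atoh1 rose (limma adjusted p = 0.0141). That fit leaves fewer residual degrees of freedom than the main fit, so its SE leans more on the spread shared over all fitted genes. This holds for every call made with the block. Without CFLARs Tg replicate 1 the difference of Atoh1 was 0.70, and without wild-type replicate 1 it was 0.34. The gap between the wild-type arrays, 0.42, was wider than that of 99.2% of the fitted genes, whose median gap was 0.05.

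Spdef, an ETS factor that acts after Atoh1 in the maturation of goblet and Paneth cells, was measured by probe set 10449377. It read 9.20 and 9.37 in wild-type and 9.74 and 9.73 in CFLARs Tg, in the order XX type and XY type. The CFLARs Tg arrays differed by 0.01 and lay above both wild-type arrays. The means were 9.28 ± 0.12 and 9.73 ± 0.0099, and Spdef rose 1.37-fold (limma adjusted p = 0.0292). On the log2 scale this is 0.45 (SE 0.08, 95% interval from 0.25 to 0.65). The difference was 0.54 in the XX type and 0.36 in the XY type. Spdef also rose with the sex type as a block (limma adjusted p = 0.0234). Without wild-type replicate 1 (XX) the difference was 0.37 and without wild-type replicate 2 (XY) it was 0.53, and neither was called (limma adjusted p = 0.221 and 0.147).

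Klf4, a zinc finger factor of maturing goblet cells that also marks other differentiated epithelium, was measured by probe set 10513008. It read 9.83 and 9.80 in wild-type and 10.58 and 10.16 in CFLARs Tg, in the same order. The wild-type arrays lay close together, and the XCFX array stood above the XCFY array, the reverse of the order seen for Atoh1. The means were 9.82 ± 0.02 and 10.37 ± 0.30, a 1.47-fold difference (log2 difference 0.55, SE 0.15, 95% interval from 0.16 to 0.95, limma adjusted p = 0.0655). The difference was 0.75 in the XX type and 0.36 in the XY type. Klf4 rose with the sex type as a block (limma adjusted p = 0.0284). The difference of Klf4 was 0.34 without CFLARs Tg replicate 1 and 0.76 without CFLARs Tg replicate 2. In these fits only the wild-type arrays, 0.03 apart, gave the spread, while the CFLARs Tg arrays lay 0.42 apart. Without wild-type replicate 1 the difference was 0.57 and without wild-type replicate 2 it was 0.54.

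**Figure D1:**
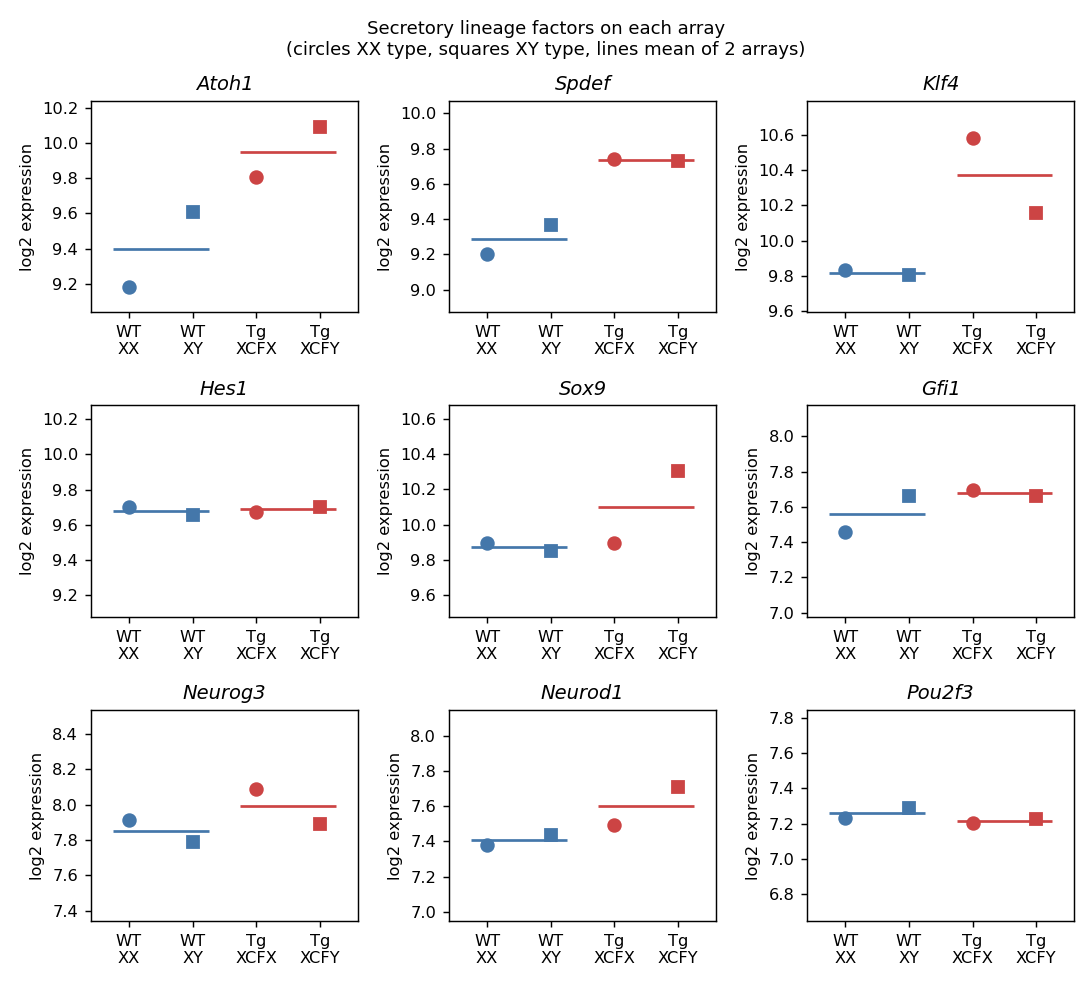
Log2 expression of the 9 factors (vertical axis, 1.2 log2 units in each panel) on each array, with wild-type (WT) in blue, CFLARs Tg (Tg) in red, circles for the XX type, squares for the XY type and lines for the mean of 2 arrays. Both Tg arrays lie above both WT arrays for Atoh1, Spdef, Klf4 and Neurod1, and the 4 readings of Hes1 lie between 9.65 and 9.70.

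Hes1, the Notch target that represses Atoh1, was measured by probe set 10434925. It read 9.70 and 9.65 in wild-type and 9.67 and 9.70 in CFLARs Tg, and the groups overlapped. The difference was 0.01 (SE 0.06, limma adjusted p = 0.915), with a 95% interval from -0.14 to 0.160. The mean differences of Atoh1, Spdef and Klf4 lie above this interval. The interval of Spdef (from 0.25) lies above it too, while those of Atoh1 (from 0.09) and Klf4 (from 0.159) reach into it. The sign of the difference turned when wild-type replicate 2 or CFLARs Tg replicate 2 was left out (-0.01 in both cases).

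Sox9, a factor of crypt base cells that Paneth cells need, was measured by probe set 10382328. It read 9.90 and 9.85 in wild-type and 9.89 and 10.30 in CFLARs Tg. The XCFY array alone stood apart, by 0.41 from the XCFX array, which lay within the wild-type range. The difference was 0.22 (SE 0.15, limma adjusted p = 0.316), with a 95% interval from -0.16 to 0.61. Without CFLARs Tg replicate 1 (XCFX), the difference was 0.43, and without CFLARs Tg replicate 2 (XCFY) it was 0.02. In these fits only the wild-type arrays, 0.05 apart, gave the spread, while the CFLARs Tg arrays lay 0.41 apart.

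Gfi1, the zinc finger repressor that follows Atoh1, was measured by probe set 10532124. It read 7.46 and 7.66 in wild-type and 7.70 and 7.66 in CFLARs Tg, and the groups overlapped. The difference was 0.12 (SE 0.09, limma adjusted p = 0.377). Gfi1 is also a factor of neutrophil and lymphoid precursors, and neutrophil markers rose in these samples, as given further on.

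Neither of the enteroendocrine factors was called. Neurog3, which commits cells to this lineage (probe set 10363545), read 7.92 and 7.79 in wild-type and 8.09 and 7.89 in CFLARs Tg, and the groups overlapped. Its difference was 0.14 (SE 0.09, limma adjusted p = 0.330). Neurod1, which acts next in these cells (probe set 10484276), read 7.38 and 7.44 in wild-type and 7.50 and 7.71 in CFLARs Tg, without overlap. Its difference was 0.19 (SE 0.09, limma adjusted p = 0.189). The difference of Neurod1 was 0.30 without CFLARs Tg replicate 1 and 0.09 without CFLARs Tg replicate 2. The upper ends of the 95% intervals were 0.39 for Neurog3 and 0.43 for Neurod1. Both intervals overlap those of Atoh1, Spdef and Klf4, which start at 0.09, 0.25 and 0.16. A smaller change than in those 3 factors is therefore not shown.

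Pou2f3, the POU factor that tuft cells depend on, was the one factor left out by the filter (probe set 10592705). It read 7.23 and 7.29 in wild-type and 7.20 and 7.22 in CFLARs Tg, and both CFLARs Tg arrays lay just below both wild-type arrays. In a fit without the filter, in which 12% of all 19938 genes passed in either direction, its difference was -0.05 (SE 0.06, 95% interval from -0.20 to 0.10, limma adjusted p = 0.649).

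Among the 8 fitted factors, 4 had both CFLARs Tg arrays above both wild-type arrays (Atoh1, Spdef, Klf4 and Neurod1), as did 32% of all fitted genes, and the other 4 overlapped. With the sex type as a block, 3 of 8 rose, Atoh1, Spdef and Klf4, against 10.1% of all fitted genes that rose and 12.2% that fell in that fit. With either wild-type array left out, so that only the CFLARs Tg arrays gave the spread, 0 of 8 were called (limma; unadjusted p under 0.05 in 2 in each case). Few genes of any kind were called in these fits: 0.244% rose and 0.0573% fell without wild-type replicate 1, and 0.265% rose and 0.0215% fell without wild-type replicate 2. With CFLARs Tg replicate 1 left out, so that only the wild-type arrays gave the spread, 5 rose, and with CFLARs Tg replicate 2 left out, 2 rose. Of all fitted genes, 22.3% rose and 24.7% fell in the former fit, and 14.1% rose and 18.3% fell in the latter, so counts of calls in these fits are large for genes of any kind.

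**Figure D2:**
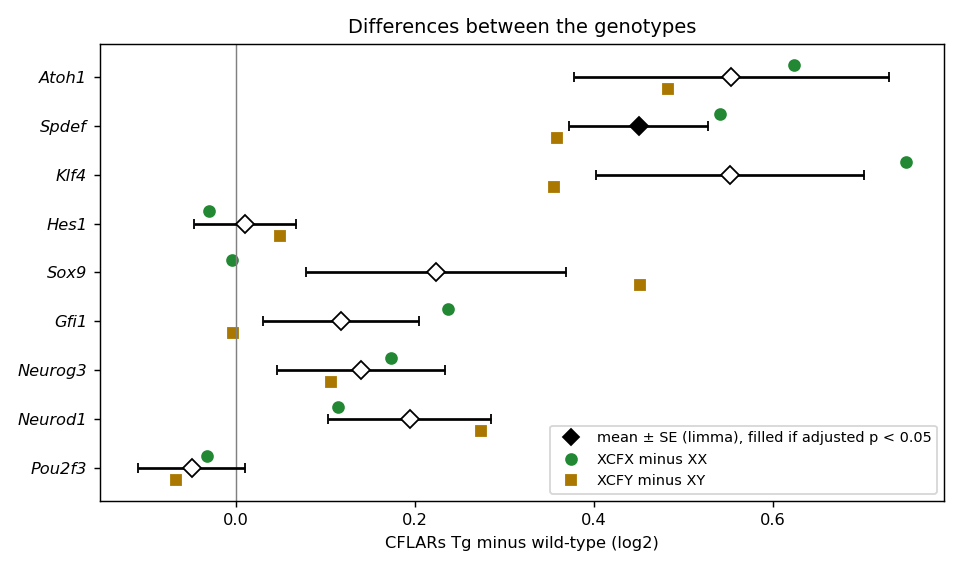
Difference of each factor between the genotypes (CFLARs Tg minus wild-type, log2). Diamonds show the mean with its limma SE as whiskers, filled where the adjusted p is under 0.05, circles the XX type and squares the XY type; Pou2f3 comes from the fit without a filter. Spdef is the filled diamond, at 0.45, and the circle and the square of Sox9 lie at -0.0039 and 0.45.

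Over the 4 arrays, the genes with a pattern most like that of Spdef, by the Euclidean distance between log2 values centred on the wild-type mean, were Dusp5, a phosphatase of ERK kinases (distance 0.047), Mt1, a metallothionein (0.050), and Tnfsf13b, the B cell survival factor BAFF (0.058). Dusp5 read 9.10 and 9.25 in wild-type and 9.67 and 9.61 in CFLARs Tg. With 4 arrays many genes share such a pattern, so this is a description.

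Notch pathway genes lay on either side of 0. Of 33 fitted genes of 35 listed, 3 fell and 0 rose, with a median difference of -0.04; with 10.9% of all fitted genes lower, 3 of 33 is no more than the background. Pofut1, which adds the O-fucose that Notch receptors need, fell from 10.43 ± 0.06 to 9.77 ± 0.18 (SE 0.10, limma adjusted p = 0.0255). Olfm4, a stem cell gene that Notch activates in the small intestine, fell from 11.61 ± 0.05 to 11.18 ± 0.04 (limma adjusted p = 0.0235). Numb, an inhibitor of Notch, fell from 10.97 ± 0.0012 to 10.66 ± 0.06 (limma adjusted p = 0.0347). These genes do not act in one direction: Pofut1 serves Notch signalling, Numb opposes it and Olfm4 is a target. Hes6, a relative of Hes1 that can oppose it, differed by -0.29 and Nrarp, a target and feedback inhibitor of Notch, by -0.28 (limma adjusted p = 0.0678 and 0.0740). Leaving out either wild-type array ended the 3 calls (0 genes by limma; unadjusted p under 0.05 in 4 without replicate 1 and in 3 without replicate 2). Without CFLARs Tg replicate 1, 2 rose and 10 fell, and without replicate 2, 1 rose and 5 fell, in fits that called 24.7% and 18.3% of all genes lower.

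Among 14 fitted transcription factors that act with or after Neurog3, of 20 listed, 1 rose and 1 fell, with a median of -0.08, near the 8.44% and 10.9% of all fitted genes. Foxa1, a forkhead factor of endodermal epithelium that serves both goblet and enteroendocrine cells, rose from 9.72 ± 0.11 to 10.30 ± 0.05, which is 1.50-fold (limma adjusted p = 0.0212). Rfx3, a factor of ciliated and endocrine cells, fell by 0.26 (SE 0.06, limma adjusted p = 0.0482), and this call was lost with the sex type as a block (limma adjusted p = 0.0673) and without a filter (0.0602). Pdx1 differed by -0.42, Etv1 by -0.20 and Pax4 by -0.22, and Pax4 passed the filter only through its wild-type arrays (CFLARs Tg mean 7.47). Without wild-type replicate 1 or 2, 0 of these factors were called (limma; unadjusted p under 0.05 in 2 in each case), and without CFLARs Tg replicate 1, 1 rose and 3 fell, where 22.3% and 24.7% of all genes did.

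**Figure D3:**
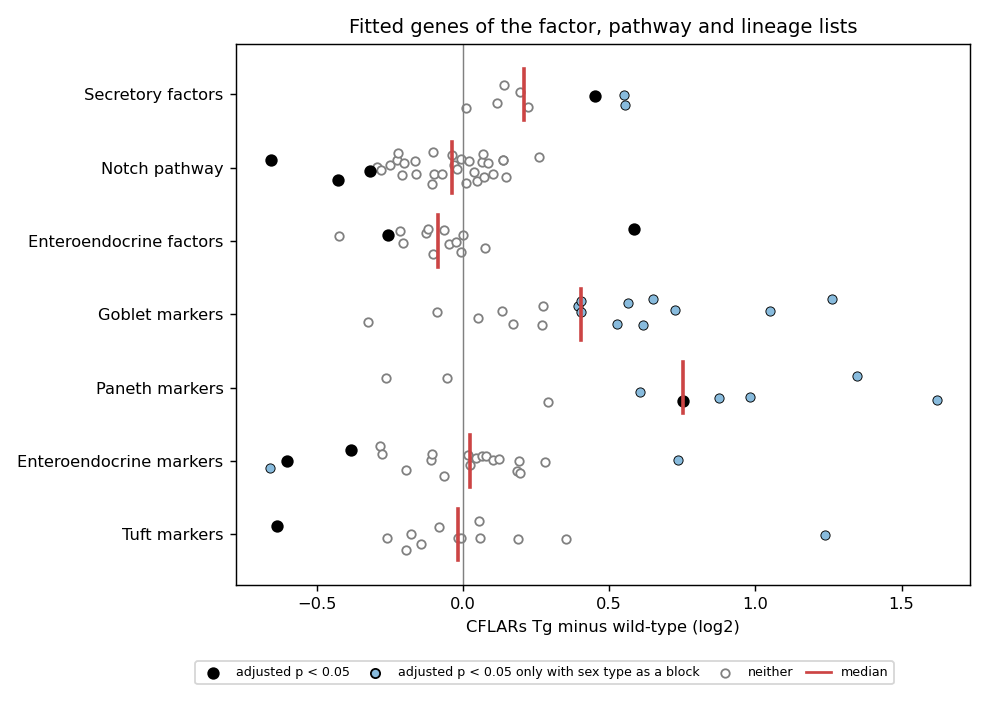
Differences between the genotypes (CFLARs Tg minus wild-type, log2) of the fitted genes in 7 lists, 1 circle a gene, black where the adjusted p is under 0.05, blue where it is so only with the sex type as a block; red bars are medians and the vertical scatter within a list has no meaning. The medians of goblet and Paneth markers lie at 0.40 and 0.75 and those of the Notch, enteroendocrine and tuft lists between -0.08 and 0.02.

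Atoh1 read lowest in the wild-type XX array, followed by wild-type XY, XCFX and XCFY. This order held in 12 of 17 fitted goblet cell markers, in 2 of the 8 fitted factors and in 13.2% of all fitted genes. The order was taken from Atoh1, which is 1 of these 2 factors, the other being Neurod1. It was not particular to goblet markers: 6 of 9 fitted neutrophil and 6 of 13 monocyte and macrophage markers had it, and 0 of 16 enterocyte markers. S100a8, S100a9, Ly6g, Cxcr2 and the macrophage marker Cd14, all with this order, had wild-type means from 6.71 to 7.32, under the filter cut. They passed only through their CFLARs Tg arrays, so these counts depend on the filter. Of the 17 markers, 16 read higher in the wild-type XY than in the wild-type XX array, against 45.6% of all fitted genes, and 17 read higher in the XCFY than in the XCFX array, against 51.1%. The mean log2 level of the 17 was 9.71 and 10.17 in the wild-type XX and XY arrays and 10.22 and 10.50 in the XCFX and XCFY arrays. The list's median difference was 0.40, and 0 of 17 were called (limma; unadjusted p under 0.05 in 7, and 39.1% of all fitted genes had such a p). Zg16, a lectin-like protein of goblet granules, read 10.54 ± 0.92 and 11.80 ± 0.42 (limma adjusted p = 0.125), with 9.89 and 11.19 on the wild-type arrays. Clca1, which processes mucus, differed by 1.05, Ccl6 by 0.72, Spink4 by 0.65 and the trefoil factor Tff3 by 0.62. In the fit with the sex type as a block, 10 of the 17 rose and 0 fell, these 5 among them (limma adjusted p from 0.00974 for Spink4 to 0.0264 for Clca1), against 10.1% of all genes. Retnlb, a goblet cell antimicrobial protein that the filter left out, read 6.12 and 6.07 in wild-type and 7.53 and 8.58 in CFLARs Tg and rose in the fit without a filter (limma adjusted p = 0.0322); it was chosen after its values were seen. Without CFLARs Tg replicate 1, 8 markers rose and 1 fell, where 22.3% and 24.7% of all genes did. Without replicate 2, 0 rose and 1 fell, St6galnac1, a sialyltransferase of mucins, which was chosen after its values were seen.

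**Figure D4:**
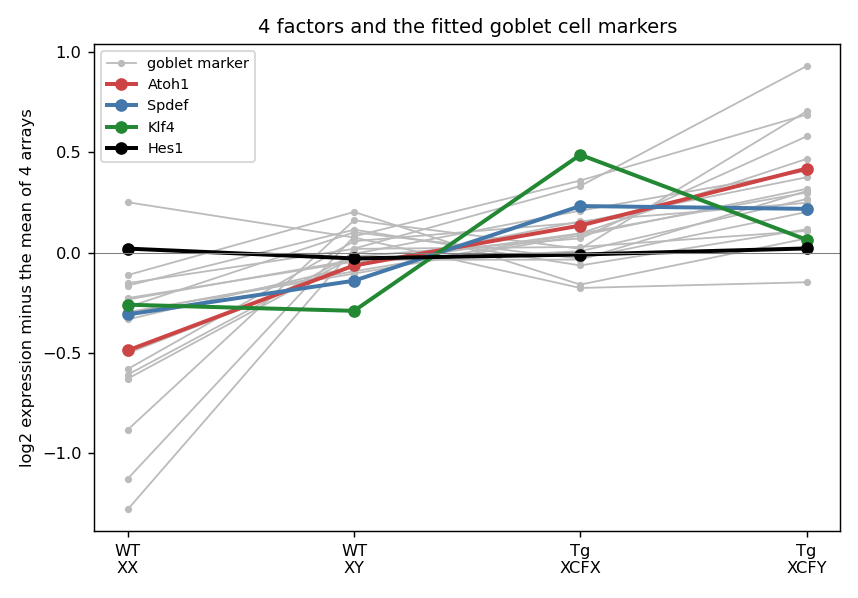
Log2 expression of Atoh1, Spdef, Klf4, Hes1 (coloured or black lines) and of the 17 fitted goblet cell markers (grey lines) on the 4 arrays, each gene minus its own mean over the 4 arrays; lines only join the readings of a gene. Atoh1 and most goblet markers are lowest in the wild-type XX array and highest in the XCFY array, Klf4 is highest in the XCFX array, and Hes1 is level.

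Of 9 fitted Paneth cell markers of 17 listed, 9 read higher in the wild-type XY than in the wild-type XX array and 7 in the XCFY than in the XCFX array. Of these 9, 1 rose and 0 fell, with a median of 0.75, and 1 of 9 is near the 8.44% of all fitted genes that rose. Without the filter the median over the 12 listed genes on the array was 0.53, so it depends on the filter. The median of 0.75 is the difference of Nupr1 itself. Nupr1, a stress-induced chromatin protein counted among the Paneth markers, rose from 9.45 ± 0.17 to 10.21 ± 0.17 (limma adjusted p = 0.0270). Mmp7, which activates the defensins of Paneth cells, differed by 1.62 (SE 0.42, limma adjusted p = 0.0585), Defa24 by 1.35, Lyz1 by 0.98 and Ang4 by 0.88. The wild-type arrays of Defa24 differed by 1.62 (8.44 and 10.06), and probes for a defensin or for Lyz1 may also match close copies of the gene. With the sex type as a block 6 of 9 rose and 0 fell, these 5 among them (limma adjusted p from 0.00231 for Defa24 to 0.0457 for Lyz1). In that fit 10.1% of all fitted genes rose. Without either wild-type array 0 were called (limma; unadjusted p under 0.05 in 4 without replicate 1 and in 5 without replicate 2), and without either CFLARs Tg array 5 rose, where 22.3% (without replicate 1) and 14.1% (without replicate 2) of all genes did.

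Of 21 fitted enteroendocrine cell markers of 24 listed, 2 fell and 0 rose, against 10.9% of all fitted genes that fell. Their median was 0.02, with large differences in both directions. The hormone gene Sst, for somatostatin, fell from 10.75 ± 0.02 to 10.15 ± 0.05 (SE 0.06, limma adjusted p = 0.0168), and Ghrl, for ghrelin, fell from 10.32 ± 0.06 to 9.94 ± 0.03 (limma adjusted p = 0.0267). Tac1, which encodes substance P and is also made by enteric neurons, differed by 0.74, Gip by -0.66 and Vwa5b2 by -0.28. With the sex type as a block 4 were called, with Tac1 higher and Gip lower (limma adjusted p = 0.0279 and 0.0325). In that fit 10.1% of all fitted genes rose and 12.2% fell. Leaving out either wild-type array ended the calls of Sst and Ghrl (0 genes by limma; unadjusted p under 0.05 in 4 in each case). With either CFLARs Tg array left out, only the wild-type arrays gave the spread, so calls in those fits are no result about these markers.

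Of 13 fitted tuft cell markers of 22 listed, 1 fell and 0 rose, with a median of -0.02, against 10.9% of all fitted genes that fell. Hpgds, a prostaglandin D synthase that tuft cells share with mast cells and macrophages, fell from 9.78 ± 0.13 to 9.15 ± 0.14 (limma adjusted p = 0.0270). Alox5ap, a leukotriene gene that tuft cells share with neutrophils and macrophages, read 7.81 and 7.71 in wild-type and 8.53 and 9.46 in CFLARs Tg (limma adjusted p = 0.0560) and rose with the sex type as a block (limma adjusted p = 0.0249). Alox5, its partner, differed by 0.35, the taste receptor gene Tas1r3 by -0.26 and Plcb2 by -0.19. With a wild-type mean of 7.45, Alox5 passed the filter only through its CFLARs Tg arrays. Sucnr1, the succinate receptor, which the filter left out, fell in the fit without a filter (by 0.69, limma adjusted p = 0.0216; chosen after its values were seen). With any 1 array left out, only 1 genotype gave the spread, so calls in those fits are no result about the tuft markers.

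Other cell types in the tissue also moved between the genotypes. The counts below stand against 8.44% of all fitted genes that rose and 10.9% that fell. Of 16 fitted enterocyte markers, which define the labelled tissue, 4 fell, with a median of -0.52. On the wild-type arrays they read between 8.05 and 14.30, above the background readings of sex-linked genes (up to 6.78). The largest differences were those of the peptidase Mme (-3.67) and the glucose transporter Slc2a2 (-2.78), and Slc2a5 and Slc15a1, named after their values were seen, also fell. Slc2a5, with a CFLARs Tg mean of 7.35, passed the filter only through its wild-type arrays. Mme read 6.89 in XCFY, next to background, which limits its difference. The mean log2 level of the 16 was 12.54 and 12.53 in wild-type, 12.00 in XCFX and 11.31 in XCFY. Of 9 fitted neutrophil markers of 14 listed, 7 rose, with a median of 1.81. The 9 had mean levels of 7.43 and 7.53 in wild-type, 8.69 in XCFX and 9.76 in XCFY. S100a9 rose by 2.71 and S100a8 by 2.67. S100a8, S100a9, Ly6g, Cxcr2, Csf3r and Il1r2 had wild-type means from 6.71 to 7.30, under the filter cut of 7.48. They passed only through their CFLARs Tg arrays, so this count and median depend on the filter. Without a filter 6 of 14 rose, with a median of 1.66, where 12% of all genes were called in either direction. Monocyte and macrophage markers had a median of 0.34 (13 fitted, 0 called by limma, unadjusted p under 0.05 in 6) and mean levels over the 13 of 9.07 and 9.09 in wild-type and 9.33 and 9.77 in CFLARs Tg. Of 13 crypt and cycling cell markers, which include Sox9, 3 rose and 1 fell, with a median of 0.18. The proliferation genes Top2a and Mcm5 rose by 0.48 and 0.47, and Axin2, a Wnt target, and the stem cell receptor gene Lgr5, named after their values were seen, differed by 0.30 and -0.44. All 13 read higher in XCFY than in XCFX, as Sox9 did. Of 11 endothelial markers 3 fell (median -0.11): Emcn, Kdr and Tek, the last named after its values were seen. Without a filter the calls of Mme, S100a8, Lgr5, Kdr and Tek were lost (limma adjusted p from 0.0507 to 0.0565), and with the sex type as a block those of Axin2 and Tek (0.0506 and 0.0594). Of smooth muscle and fibroblast (13 fitted), neural (9) and lymphoid (4) markers 0 were called (limma; unadjusted p under 0.05 in 1, 1 and 0), with medians of 0.04, -0.00 and 0.09. The part of these cell types in the differences of the factors and of the secretory markers was not tested.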

How the data were processed

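The authors deposited log2 expression values for 28856 probe sets on each of the 4 arrays. For background correction, summarisation and normalization, the sources used here name no method. Array medians lay between 8.31 and 8.33, and the values were used as deposited. Gene symbols came from the platform annotation: 21789 probe sets had 1 symbol, 1621 several and 5446 no symbol or no entry. The probe set with the highest mean represented a gene. Genes under a mean of 7.48 (the lowest 30%) were left out, and CFLARs Tg was compared with wild-type by limma 3.58.1 (R 4.3.3; lmFit, eBayes, Benjamini-Hochberg adjustment at 0.05) over 13956 genes, with 2 residual and 2.64 prior degrees of freedom. The scripts were tested on simulated data. Differences are CFLARs Tg minus wild-type with the moderated SE. With the sex type as a block fewer residual degrees of freedom remain, so those SEs lean more on the spread shared over all fitted genes. Probe sets carry background signal (5.13 to 6.78 for genes of the absent sex chromosome state), so differences of low readings understate changes in RNA. The number of arrays limits the precision.

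The factors, gene lists, tests and 11 other settings (2 scalings, 2 filters, probe set median, intensity trend, sex type block, 4 sets without 1 array) were chosen with earlier results of these data known. Named genes were the 9 factors, up to 5 fitted genes of each pathway and lineage list and up to 2 of each list of other cell types with the largest differences, and the 3 genes most like each called factor, leaving out predicted genes.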

Additional observations from a re-analysis of the deposited data

Results flagged for a closer look

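For 3 of the 8 fitted factors the difference between the genotypes had opposite signs in the XX type and the XY type, as it had for 23.2% of all fitted genes. With 1 array against 1 in each sex type, this was not tested. Sox9 differed by -0.0039 in the XX type and by 0.45 in the XY type. Gfi1 differed by 0.24 in the XX type and by -0.0028 in the XY type. Hes1 differed by -0.030 in the XX type and by 0.050 in the XY type. In each case at least 1 of the paired values lies within 0.05 of 0, the median gap between the wild-type arrays over all fitted genes.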

How the results depend on the processing

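Spdef was called under each of the 7 settings that kept the 4 arrays, and the call was lost without either wild-type array. Its difference was 0.37 and 0.53 without wild-type replicate 1 and 2, and 0.44 and 0.46 without CFLARs Tg replicate 1 and 2. With the sex type as a block, 10.1% of all fitted genes rose and 12.2% fell, with fewer residual degrees of freedom than in the main fit. The counts of called genes in that fit were 3 factors, 10 goblet, 6 Paneth, 4 enteroendocrine and 2 tuft markers and 1 enteroendocrine factor. Without a filter, where 12% of all genes were called in either direction, the counts were 1 goblet marker, 2 tuft markers and 1 enteroendocrine factor. Median centring gave 2 Paneth markers and quantile normalization 2 tuft markers. Leaving out 1 array at a time gave 0 to 5 factors, 0 to 12 Notch genes, 0 to 4 enteroendocrine factors, 0 to 9 goblet, 0 to 5 Paneth, 0 to 8 enteroendocrine and 0 to 6 tuft markers; the residual spread then came from 1 genotype, and the lone array was assumed to vary like the other group. The difference of Hes1 then ran from -0.014 to 0.035, and was -0.0051 without CFLARs Tg replicate 2. The labels give the genotypes no shared replicate numbers, so the sex type of the titles was the pairing tried. Signal near background limits low readings, such as Mme in XCFY.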
